A study of Mus musculus with 6 samples.

Results

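Complement and coagulation are the cascades of plasma proteases that the liver supplies to the blood, and 47 of their genes were described here in mouse livers. The members were chosen by name, with earlier results of these data known. They are 22 complement genes and 25 coagulation genes. The former run from recognition molecules to the membrane attack complex, its inhibitors and its receptors, the latter from tissue factor to fibrinolysis. All 47 had at least 1 probe among the 37074 gene names of the array, and 46 were among the 19446 genes tested. The exception was Cfd, complement factor D, the protease that cuts factor B and a product of fat cells in mice, whose brighter probe was well above background on 0 of 3 sEV arrays and on 1 of 3 control arrays.

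The tested livers came from athymic nude mice that received small extracellular vesicles (sEVs) from cultured SW620 cells, an established line of human colorectal cancer, as 10 tail vein injections of 20 µg within 21 days. The control livers came from nude mice that received sterile PBS at the same times. There were 5 mice in either group, and 3 liver samples of each went onto 1-colour Agilent arrays of mouse probes; the sEV ones came from 3 mice picked at random, the labels do not say that the control ones came from separate mice, and age and sex are not stated in the labels. Nude mice lack a thymus and mature T cells but keep myeloid cells and a complement system of their own, and both groups share that background.

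Complement can be started by antibody-bound C1 (the classical arm), by mannose-binding lectins and their proteases (the lectin arm), or by spontaneous C3 turnover with factor B (the alternative arm). All arms cut C3 and then C5, and C5b gathers C6, C7, C8 and C9 into a pore. Coagulation is started by tissue factor with factor VII or by contact factors, runs through factors IX, X and thrombin to fibrin, and is held in check by antithrombin, protein C, protein S and TFPI; plasmin dissolves the clot. Hepatocytes secrete most of these proteins, while endothelial cells are a main source of factor VIII, von Willebrand factor, thrombomodulin and TFPI, and macrophages of C1q.

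Values are log2 signals relative to the 75th percentile of their own array, so 0 is the signal of a probe at that percentile. A fold change is sEV over control, the ± is its standard error in limma with 3 livers per group, and a gene was called when its p-value, adjusted by Benjamini-Hochberg over all genes tested, was under 0.05. Levels of different genes come from different probes and are not comparable.

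Of the 46 members tested, 8 rose and 4 fell in sEV livers, and 34 did not pass. The risers were Hc, C6, C9 and Serping1 in complement and F9, Pros1, Plg and Cpb2 in coagulation; the members that fell were Mbl2, F3, F11 and Tfpi. Over all genes tested, 17.0% were called, 9.08% as higher and 7.95% as lower in sEV livers. Of the members, 26.1% were called in either direction. Because the members were chosen with earlier results known, these shares describe the list and are not a test of it. The median log2 fold change was 0.19 over the members and 0.03 over all genes tested, and 37 of 46 members had a positive value. Groups did not overlap for 22 of 46 members, against 40.9% of all genes. The members' log2 fold changes ran from -0.93 (F11) to 1.03 (Thbd, which did not pass). Within complement 4 of 21 rose and 1 fell (median 0.17), and within coagulation 4 of 25 rose and 3 fell (median 0.20); under quantile normalization these medians were 0.09 and -0.05.

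Scaling each array to its median in place of its 75th percentile left 4 members higher and 4 lower, and Hc, F9, Pros1 and Plg lost their calls; over all genes the share of calls that were higher was then 36.9%, against 53.3%. All arrays were on 1 slide, but sEV livers 2 and 3 were in its second row, which held no control. With slide row as a block the comparison rests on sEV liver 1 against the 3 controls, so calls lost there do not show that a difference was absent. The log2 fold changes were then 0.86 for C6, 0.75 for C9, 0.73 for Cpb2, 0.52 for Hc, 0.51 for Serping1, 0.49 for F9, 0.45 for Pros1, 0.29 for Plg, -0.58 for Mbl2, -0.65 for F3, -0.81 for F11 and -0.81 for Tfpi. All 12 kept their sign, which was fixed in advance, because sEV liver 1 lay on the called side of all 3 controls in each. The values of C6, C9, Cpb2, Hc, Serping1, F9, Pros1, F3 and Tfpi lay within 1 standard error of those over all 6 arrays given below. That liver is itself among the 6 arrays that made the calls, so neither result of the block fit tests an effect of slide row. In that fit 0 members were called in either direction (9 higher and 4 lower at an unadjusted p under 0.05 in limma), with 715 calls (3.68%) over all genes; within row 1 alone 0 members (10 higher and 4 lower at that unadjusted p) and 594 genes were called. The adjusted p of the 12 in the block fit ran from 0.0593 (Mbl2) to 0.299 (Plg) in limma. Without sEV liver 1, 2 or 3 the members called higher were 7, 5 and 3 and those lower 3, 3 and 2; without control liver 1, 2 or 3 they were 3, 3 and 3 higher and 3, 2 and 2 lower. In the 6 fits that left out 1 array in turn, C6, C9, Cpb2, Mbl2 and F11 passed in 6 of 6, Serping1 (without sEV liver 1 or 2) and F3 (without control liver 1 or sEV liver 1) in 2, Hc, Tfpi (both without sEV liver 2) and Plg (without sEV liver 1) in 1, and F9 and Pros1 in 0.

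**Figure D1:**
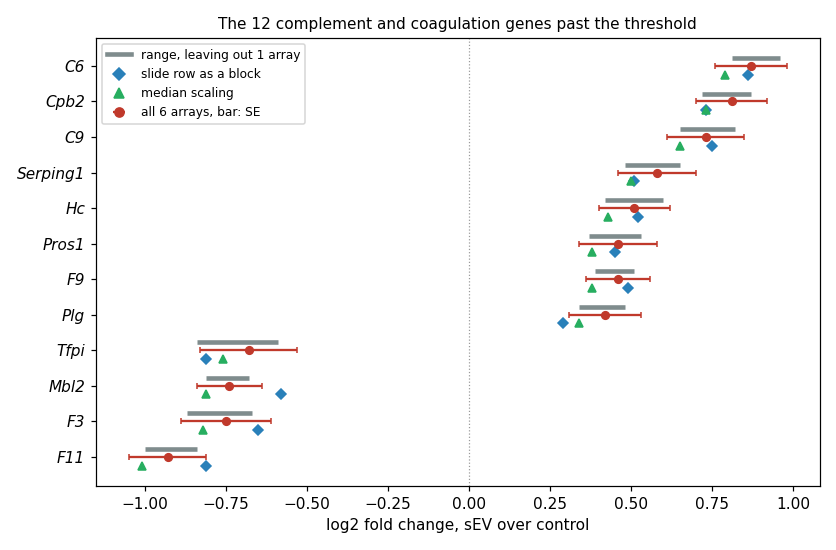
The 12 members past the threshold, with the log2 fold change (sEV over control) on the x axis. Red points and bars give the value and its standard error over all 6 arrays, grey bars the range over fits that left out 1 array, blue diamonds the value with slide row as a block and green triangles the value with median scaling. No mark lies on the other side of 0, and C6 (0.87) and F11 (-0.93) are the outermost points. The grey bars and blue diamonds could not cross 0, because the groups of these genes did not overlap.

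The terminal arm of complement held 3 of the 5 complement calls. These were 3 of its 6 tested genes (50%), against 17.0% of all genes tested. C6, which joins C5b to start the pore, had signals of 0.73, 0.83 and 0.64 in sEV livers, against -0.26, 0.05 and -0.20 in control livers. Every sEV liver was above every control liver, and the difference of 0.87 ± 0.11, a 1.83-fold higher level, passed (limma, adjusted p = 0.00714). C9, the subunit that polymerises to line the pore, had 7.22, 7.02 and 7.37 in sEV livers, against 6.36, 6.54 and 6.53 in control livers. Again no values overlapped, and C9 was 0.73 ± 0.12 higher (1.66-fold, adjusted p = 0.0135 in limma).

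Hc encodes C5, whose cleavage gives the chemoattractant C5a and the first subunit of the pore. It had 6.67, 6.48 and 6.83 in sEV livers, against 6.04, 6.22 and 6.18 in control livers, and its rise of 0.51 ± 0.11 (1.42-fold) passed with an adjusted p of 0.0311 in limma (0.0602 with median scaling). The genes for the 3 chains of C8 did not pass: C8a differed by 0.06 ± 0.14, C8b by -0.05 ± 0.13 and C8g by 0.07 ± 0.10 on the log2 scale, and for each the groups overlapped. The C6 probe lay on mm9 chr15:4689842-4705241 and the C9 probe on chr15:6447161-6448472, both on the plus strand. The Hc probe lay on chr2:34839283-34840229 on the minus strand, coordinates as the array files give them. These are genomic distances between the ends of a probe, not lengths of probe sequence. Most members' probes span 60 bases on the genome.

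Mbl2 was the complement gene that fell. It encodes mannose-binding lectin C, which binds sugars on microbes and damaged cells. Signals were 8.62, 8.43 and 8.35 in sEV livers, against 9.19, 9.23 and 9.20 in control livers, a difference of -0.74 ± 0.10 (1.67-fold lower, limma adjusted p = 0.00718). Each sEV liver was below all controls, whose 3 values lay close together. Its relative Mbl1, mannose-binding lectin A, had 4.96, 5.06 and 5.31 in sEV livers and 4.86, 5.10 and 5.11 in control livers, and did not pass (0.09 ± 0.13). Whether Mbl2 and Mbl1 differed from each other in their change was not tested. The lectin arm's proteases, Masp1 (0.12 ± 0.09) and Masp2 (0.20 ± 0.10), which cut C4 and C2 or activate each other, did not pass either. One dimmer probe of Masp1 read 0.73 on the array of sEV liver 2, against 4.0 and 3.85 on those of sEV livers 1 and 3 and 3.99 to 4.39 on the control arrays; it did not stand for the gene.

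The promoters of a few members are printed here because they show the matches found in members that rose (C9, F9), fell (F11) and did not pass (Fgb). For 36 of the 47 members, a RefSeq promoter from 250 bases before to 50 bases after the start was searched. The search covered both strands for TTCNNNGAA (the STAT motif), TTGCNNAA (C/EBP) and an NF-kappaB motif. Promoters on the chromosome of Proc were left out for the members, but not from the mouse promoters counted below. STAT and C/EBP factors are known to carry interleukin 6 signals to liver genes, and fibrinogen is a textbook target. The 250 bases before the start are given on the strand of the gene, from RefSeq on GRCm38.p6, with matches in capitals. They cover chr15:6445096-6445345 (plus strand) for C9 and chrX:59999214-59999463 (plus) for F9, which both rose, chr8:45262032-45262281 (minus) for F11, which fell, and chr3:83049864-83050113 (minus) for Fgb, which did not pass.
C9: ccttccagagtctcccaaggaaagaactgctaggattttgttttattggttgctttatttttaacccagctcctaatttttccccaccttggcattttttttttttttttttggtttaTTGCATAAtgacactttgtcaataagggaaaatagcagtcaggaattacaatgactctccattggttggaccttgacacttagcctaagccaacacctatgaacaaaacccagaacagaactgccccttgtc
F9: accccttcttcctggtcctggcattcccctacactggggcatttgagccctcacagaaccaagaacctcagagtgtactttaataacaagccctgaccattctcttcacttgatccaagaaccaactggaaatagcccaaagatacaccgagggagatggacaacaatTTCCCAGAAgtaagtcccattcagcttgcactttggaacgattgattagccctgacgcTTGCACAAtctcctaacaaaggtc
F11: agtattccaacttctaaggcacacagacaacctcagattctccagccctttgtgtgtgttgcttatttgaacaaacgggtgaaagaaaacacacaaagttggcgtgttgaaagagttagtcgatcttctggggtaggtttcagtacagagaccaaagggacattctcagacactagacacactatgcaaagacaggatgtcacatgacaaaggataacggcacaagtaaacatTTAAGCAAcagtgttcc
Fgb: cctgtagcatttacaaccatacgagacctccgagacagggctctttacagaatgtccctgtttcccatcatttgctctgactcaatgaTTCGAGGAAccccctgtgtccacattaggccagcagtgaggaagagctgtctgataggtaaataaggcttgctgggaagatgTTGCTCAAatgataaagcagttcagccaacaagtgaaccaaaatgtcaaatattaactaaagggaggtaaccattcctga
The match in C9 is a C/EBP one starting at base -132, F9 has a STAT match at -82 and a C/EBP match at -24, F11 a C/EBP match at -17 on the other strand, and Fgb a STAT match at -162 and a C/EBP match at -80. None of the matches printed overlaps another.

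A STAT match was found in 7 of the 36 members (C1ra, C8a, F9, Fga, Fgb, Masp2 and Pros1), where 8.30% of 32851 mouse promoters of the same length hold one. A C/EBP match was in 10 (C1ra, C3, C9, Cpb2, F11, F9, Fga, Fgb, Klkb1 and Serpinc1), against 10.8% of all promoters, and an NF-kappaB match in 1 (C3ar1), against 4.79%. Among the 6 members that rose and had a promoter, 2 held the STAT motif and 3 the C/EBP motif. Among the 4 that fell, 0 and 1 did, and among the 25 that did not pass, 5 and 6. These matches are descriptions of letters and not of bound sites.

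No tested member of the classical or alternative arm passed, nor did C3, while some classical genes outside the members, given further below, did. C4b, which is cut by C1s and the lectin proteases and becomes part of the C3 convertase, came nearest: it had 9.12, 9.15 and 9.32 in sEV livers, against 8.77, 9.0 and 8.89 in control livers (0.31 ± 0.10, limma adjusted p = 0.0862). Its groups did not overlap, and a second C4b probe differed by 0.50. Under quantile normalization and in the authors' deposited table the C4b difference was 0.05 in both. C4b has a near-identical neighbour in the mouse, so its probes may read both genes. C2, the protease part of that convertase, differed by 0.17 ± 0.10 and C1ra, a C1 protease that also has a near copy, by 0.16 ± 0.10.

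C3, the protein on which all arms converge, had 10.30, 10.49 and 10.45 in sEV livers, against 10.12, 10.27 and 10.14 in control livers. Those groups did not overlap, but the difference of 0.23 ± 0.09 did not pass (adjusted p = 0.132 in limma). Under the alternatives tried it ranged between 0.00 and 0.29. Cfb, the protease of the alternative convertase, differed by 0.17 ± 0.09 and Cfp, properdin, which steadies that convertase, by 0.23 ± 0.14, both with overlap.

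Among the inhibitors in plasma, Serping1 rose. It encodes C1 inhibitor, a serpin that blocks C1r, C1s and the lectin proteases in complement and kallikrein and factor XIIa in the contact pathway. It had 8.61, 8.54 and 8.88 in sEV livers, against 7.97, 8.14 and 8.18 in control livers, with no overlap, and was 0.58 ± 0.12 higher (1.49-fold, limma adjusted p = 0.0246). Under quantile normalization and in the authors' deposited table the difference was 0.34 in both, and the call was lost (adjusted p = 0.0528 and 0.0531 in limma). C4bp, C4b-binding protein, differed by 0.23 ± 0.08 without overlap and did not pass (adjusted p = 0.107 in limma), and a dim second probe had a difference of -0.62. Cfi, the protease that inactivates C3b and C4b, differed by 0.07 ± 0.09. The receptors of the C3a and C5a peptides, C3ar1 (0.20 ± 0.21) and C5ar1 (0.02 ± 0.20), which sit mainly on myeloid cells, had low signals, overlapping groups and no call.

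**Figure D2:**
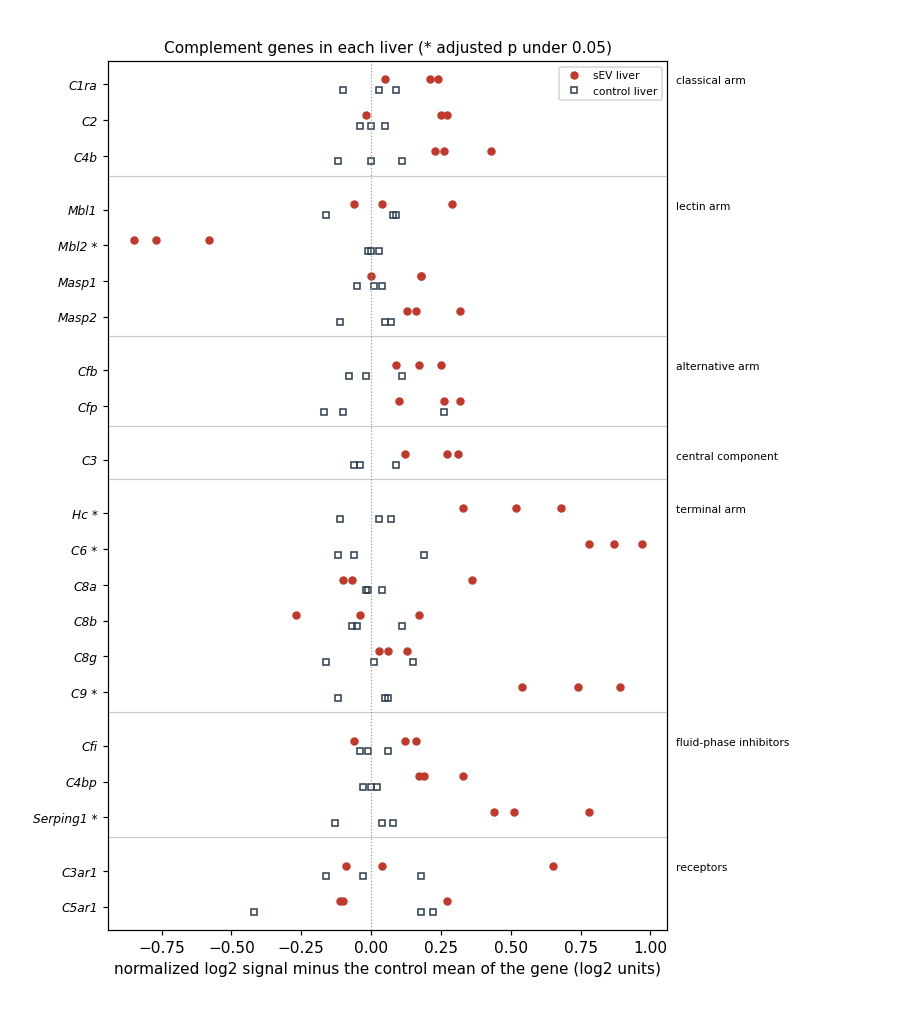
The 21 complement members tested, by arm. The x axis gives each liver's normalized log2 signal minus the control mean of the gene; red circles are sEV livers and open squares control livers, with 3 of each per gene, and an asterisk marks an adjusted p under 0.05. The sEV livers lie to the right of the controls for Hc, C6, C9 and Serping1, and to the left for Mbl2.

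In coagulation the largest called change was in F11, factor XI, the protease that activates factor IX and amplifies thrombin formation. Signals were 4.16, 4.03 and 3.93 in sEV livers, against 5.16, 4.93 and 4.82 in control livers. All sEV livers were below all controls, and F11 was 0.93 lower on the log2 scale (-0.93 ± 0.12, 1.91-fold, limma adjusted p = 0.00675). Its probe lay on mm9 chr8:46326753-46326812 on the minus strand. Klkb1, plasma prekallikrein, a close relative of F11 by sequence and its neighbour on chromosome 8, had 6.05, 5.89 and 5.68 in sEV livers, against 6.04, 6.13 and 6.04 in control livers, and did not pass (-0.19 ± 0.11).

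The other contact factors did not pass. F12, factor XII, which starts the contact pathway on surfaces, had 5.97, 5.91 and 6.03 in sEV livers and 5.70, 5.78 and 5.50 in control livers (0.31 ± 0.10, limma adjusted p = 0.0859), without overlap but without a call. Kng1, high molecular weight kininogen and source of bradykinin, differed by 0.29 ± 0.15 at its brightest probe, with overlap, and by 0.44 and 0.40 at its other probes, without overlap; mouse Kng1 and Kng2 are near copies, so their signals may not be separate.

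F3, tissue factor, the cell-surface starter of coagulation, fell. It had -0.53, -0.78 and -0.56 in sEV livers, against -0.13, 0.22 and 0.28 in control livers, and was 0.75 lower on the log2 scale (-0.75 ± 0.14, 1.68-fold, limma adjusted p = 0.0197). F7, the plasma protease that tissue factor activates, had a positive difference that did not pass: 4.81, 4.65 and 4.77 in sEV livers, against 4.17, 4.53 and 4.32 in control livers (0.40 ± 0.11, limma adjusted p = 0.0591). Both genes had groups that did not overlap, and F7 was called under 6 of the 18 alternatives tried.

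Of the 6 genes of amplification and thrombin generation, F9 alone passed. Factor IX, the protease missing in haemophilia B, had 5.59, 5.46 and 5.62 in sEV livers, against 4.96, 5.19 and 5.13 in control livers, and was 0.46 ± 0.10 higher (1.37-fold, limma adjusted p = 0.0274, or 0.0757 with median scaling). Its cofactor F8 differed by -0.15 ± 0.22, and Vwf, the carrier of factor VIII, by 0.20 ± 0.17. F10, F5 and F2, which form and supply the prothrombinase step, differed by 0.11 ± 0.10, 0.13 ± 0.11 and 0.11 ± 0.15 in that order, and for each of these 5 genes the groups overlapped.

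The fibrinogen chains did not pass. Fga had 8.31, 8.52 and 9.15 in sEV livers, against 7.94, 7.98 and 7.99 in control livers (0.69 ± 0.21, limma adjusted p = 0.0736). The groups did not overlap, sEV liver 3 was the highest, and without that liver the difference was 0.44; Fga was called under 4 of the 18 alternatives, including the fit without sEV liver 1 (0.87); a dimmer Fga probe differed by 0.29 with overlap. Fgb (0.20 ± 0.15) and Fgg (0.23 ± 0.15), the other chains of the same hexamer, had overlapping groups. In both, sEV liver 1 was below all 3 controls and sEV livers 2 and 3, those of the second slide row, were above them. F2 had the same order, as did Alb and Gapdh, which were listed as control genes, while Actb, also listed as one, did not. Whether this order came from slide row was not tested. F13b, the carrier subunit of the factor that crosslinks fibrin, differed by -0.10 ± 0.08.

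Among the anticoagulants 1 rose and 1 fell. Pros1, protein S, the cofactor of activated protein C and TFPI, had 5.12, 5.01 and 5.24 in sEV livers, against 4.49, 4.70 and 4.81 in control livers, and rose by 0.46 ± 0.12 (1.37-fold, limma adjusted p = 0.0431, or 0.0957 with median scaling); a second probe differed by 0.62, also without overlap. Tfpi, tissue factor pathway inhibitor, which blocks tissue factor with factor VIIa and factor Xa, had -1.03, -0.60 and -1.08 in sEV livers, against -0.31, -0.15 and -0.21 in control livers. It was 0.68 lower on the log2 scale (-0.68 ± 0.15, 1.61-fold, limma adjusted p = 0.0278), and the other Tfpi probes differed by -0.49, -0.24 and -0.72, the last of them not well above background on any array. The starter F3 and its inhibitor Tfpi were thus both lower in sEV livers.

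Thbd, thrombomodulin, the endothelial receptor that turns thrombin toward protein C, had the highest fold change of the members without passing. Its signals were -1.90, -1.32 and -0.63 in sEV livers, against -2.65, -2.26 and -2.03 in control livers (1.03 ± 0.33, limma adjusted p = 0.0811). The sEV livers were all above the controls but spread widely, and with slide row as a block the difference was 0.42. Serpinc1, antithrombin, differed by 0.21 ± 0.09 without overlap, Serpind1, heparin cofactor II, by 0.06 ± 0.08, and Proc, protein C, by -0.04 ± 0.08.

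In fibrinolysis both sides of the balance were represented. Cpb2 encodes the carboxypeptidase TAFI, which removes the lysines that plasminogen binds on fibrin and so slows clot lysis. It had 8.05, 8.04 and 8.30 in sEV livers, against 7.19, 7.45 and 7.33 in control livers, and rose by 0.81 ± 0.11 (1.75-fold, limma adjusted p = 0.00891), the largest called rise in coagulation. Plg, plasminogen, the precursor of the clot-dissolving plasmin, had 5.04, 5.14 and 5.32 in sEV livers, against 4.67, 4.87 and 4.70 in control livers. Its rise of 0.42 ± 0.11 (1.34-fold, limma adjusted p = 0.0450, or 0.0993 with median scaling) was the called change nearest to the threshold, and with slide row as a block it was 0.29. Serpinf2, antiplasmin, differed by 0.18 ± 0.09 without overlap and did not pass.

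**Figure D3:**
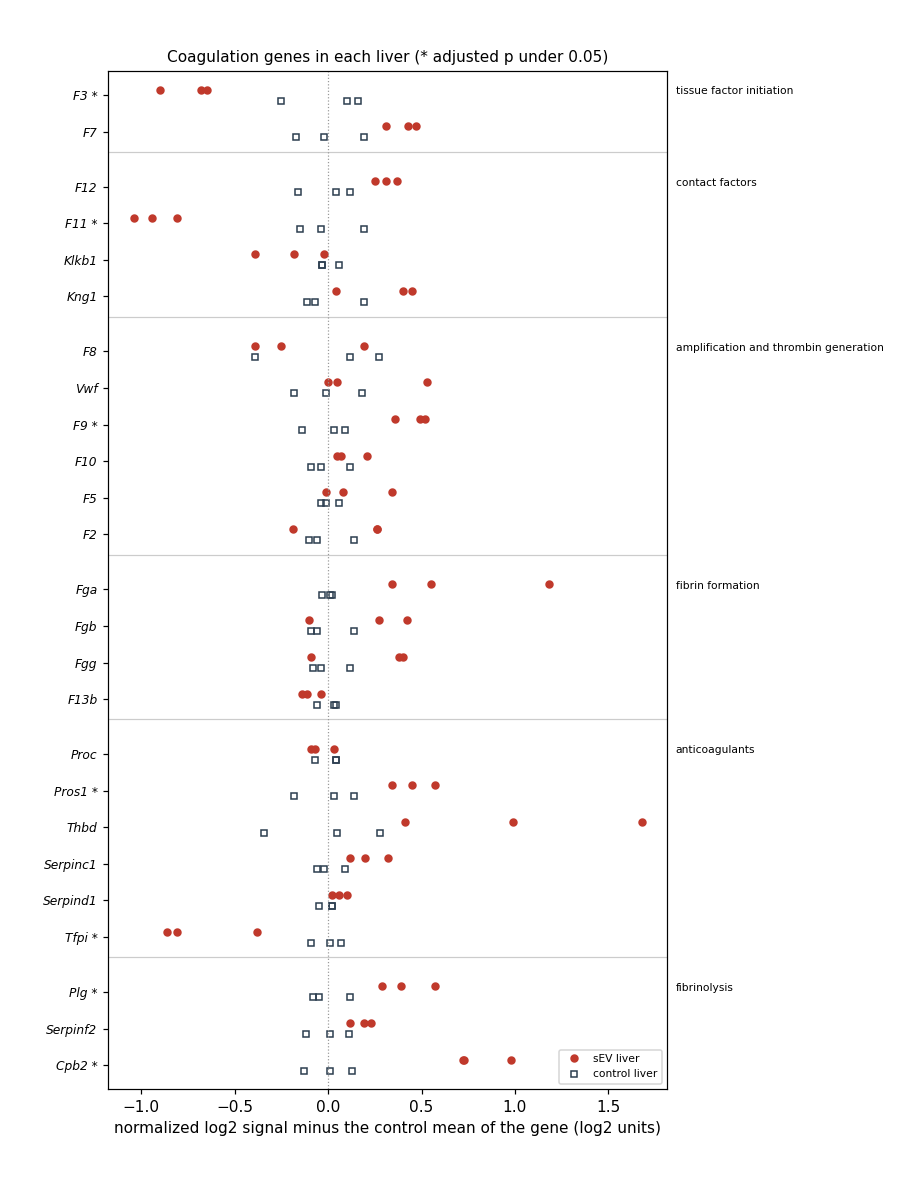
The 25 coagulation members by step, with each liver's normalized log2 signal minus the control mean of the gene on the x axis. Red circles are sEV livers and open squares control livers, with 3 of each per gene, and an asterisk marks an adjusted p under 0.05. F11, F3 and Tfpi lie to the left in sEV livers and Cpb2, F9, Pros1 and Plg to the right, while Thbd and Fga are spread among sEV livers.

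The vitamin K-dependent proteins among the members are F2, F7, F9, F10, Proc and Pros1, of which F9 and Pros1 rose and F2, F7, F10 and Proc had log2 fold changes of 0.11, 0.40, 0.11 and -0.04. Of 6 other genes of the vitamin K cycle and of secretion, which share members with the further coagulation genes below, 0 were called by limma (median -0.01), and 1 had an unadjusted p under 0.05. Of the serpins, Serping1 rose, while Serpinc1, Serpind1 and Serpinf2 did not pass.

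Further genes of the same systems, from lists made with earlier results of these data known, gave context. Among 33 other complement genes tested, 8 rose and 2 fell (median 0.32), a share of 30.3% against 17.0% of all genes. One of the 8, Fcnb, a ficolin, was well above background on 3 sEV and 0 control arrays and so entered the test only through the sEV livers; it was at least 2.6-fold higher there, and it is named after its values were seen. The risers with the largest moderated t were Itgb2, the beta chain of complement receptors 3 and 4 (0.73 ± 0.08), C1qc (0.76 ± 0.13) and C1qa (0.74 ± 0.13), chains of the C1 recognition molecule, and Vsig4, a macrophage receptor of C3b (0.59 ± 0.11). Those that fell were Itgam, the alpha chain of complement receptor 3 (-0.79 ± 0.17), and Colec11, a collectin of the lectin arm (-0.66 ± 0.17). C1qa had 4.02, 4.11 and 4.05 in sEV livers, against 3.10, 3.57 and 3.28 in control livers, and the groups did not overlap; the classical members C1ra, C2 and C4b did not pass.

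Among 31 other coagulation genes tested, 7 rose and 0 fell (median 0.13; by limma, with 9 higher and 1 lower at an unadjusted p under 0.05), a share of 22.6% against 17.0% of all genes. Itih3 and Itih4 of the 7 are also on the acute phase list below. Itih3, a hyaluronan-linked inhibitor chain (0.88 ± 0.11), Hrg, histidine-rich glycoprotein, which binds plasminogen and heparin (0.98 ± 0.14), Plaur, the urokinase receptor (0.61 ± 0.12), and Kng2 (0.55 ± 0.11) had the largest moderated t. In each of these 4 genes the sEV livers were above all control livers.

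Acute phase genes and several lists of cell type markers differed between the groups as well, and their part in the results was not tested. Each count is to be read against the 17.0% of all genes that were called, and each sum is weighted to the brightest probes of its list. Of 23 acute phase genes, 17 rose and 0 fell (median 1.35), with Saa3, a serum amyloid A, at 6.53 and Orm2, an orosomucoid, at 1.86; summed linear signals, in multiples of the array's 75th percentile, were 11900 to 14900 in sEV livers and 4870 to 6200 in control livers. Of 14 hepatocyte markers, all measured on every array, 7 rose and 0 fell (median 0.31, Tat 1.20 and Cps1 0.85), with sums of 5470 to 6010 in sEV livers and 4270 to 4650 in control livers. Since these are whole livers, more or fewer cells of a type and more or less RNA per cell cannot be told apart.

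Of 13 Kupffer cell and macrophage markers, which include C1qa, C1qb, C1qc and Vsig4 of the complement list, 7 rose and 0 fell, with C1qc and C1qa at the largest moderated t, and sums were 227 to 249 in sEV livers and 156 to 209 in control livers. Of 10 neutrophil markers 4 rose (Elane 1.32, Mpo 2.02) and 0 fell (median 1.14), while Ly6g (-0.07), Csf3r (-0.89), Cxcr2 (0.84) and Retnlg (0.58) had overlapping groups and did not pass (these 4 are named after their values were seen). Csf3r read 3.95 in sEV liver 2, against 6.86 and 6.63 in sEV livers 1 and 3 and 6.49 to 6.86 in control livers. The neutrophil sums were 213 to 234 in sEV livers and 152 to 185 in control livers. Of 12 endothelial markers 0 rose and 2 fell (Stab1 -0.53, Egfl7 -0.32), a share of 16.7%, near that of all genes, with a median of -0.24. Their sums overlapped, with 80.7 to 95.1 in sEV livers and 87.6 to 116 in control livers. These stand beside Tfpi, which fell, and F8, Vwf and Thbd, which did not pass. F8 had a negative log2 fold change, while those of Vwf and Thbd were positive, that of Thbd the highest of the members. Of 10 stellate cell markers, which include Colec11, 0 rose and 6 fell (median -0.66; Col3a1 -1.89, Lrat -1.09), with sums of 90.9 to 123 in sEV livers and 123 to 177 in control livers, in which the brightest probe, that of Dcn, did not pass (-0.21). Of 8 platelet markers 1 rose (Itgb3 0.68), a share of 12.5%. Of 7 adipocyte markers listed 3 were tested, and 1 rose (Lep 0.48), while Cidec (0.18) and Fabp4 (-0.24) did not pass. The adipocyte sums overlapped, with 6.99 to 8.88 in sEV livers and 7.53 to 8.99 in control livers.

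**Figure D4:**
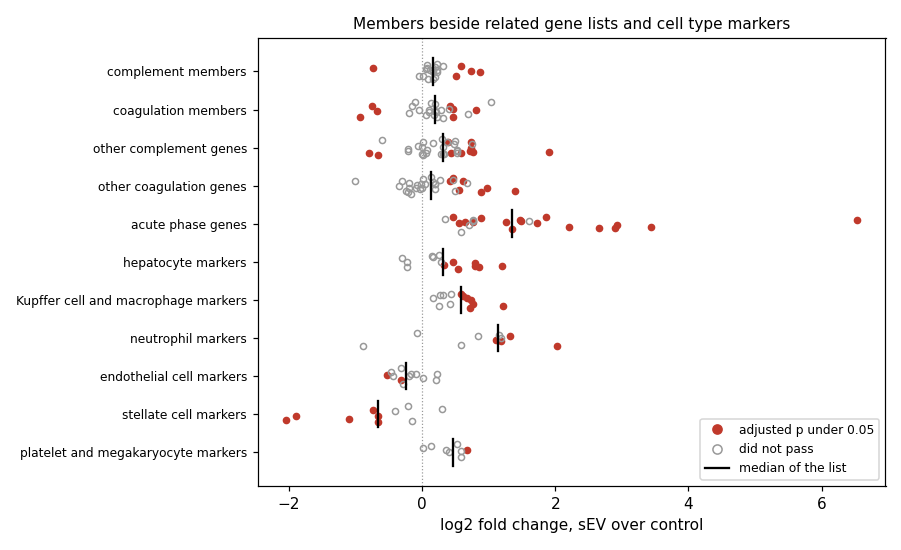
Log2 fold changes (sEV over control, x axis) of the members and of related lists; filled red points passed an adjusted p of 0.05, open grey points did not, and black lines are medians. The medians of the complement (0.17) and coagulation (0.20) members lie near 0, while the acute phase median is 1.35 and the stellate cell median -0.66.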

How the data were processed

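RNA of 6 livers was measured on 1-colour arrays, and the labels' treatment field gave the groups. Scanner files, which the submitters' processing notes credit to Agilent Feature Extraction 10.7.1.1, hold background-subtracted processed signal as intensity, per the file headers. The authors' value table is in log2 units: each column followed its array's scanner values (lowest r 0.9995, medians 4.5), and the steps that made it are not stated.

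Processed signals were taken to log2 and reduced by the array's 75th percentile (401.5 to 424 in sEV arrays, 440.1 to 506.4 in control arrays). Control spots and outliers (91 to 171 spots) were removed, and replicate spots averaged; 0 spots were saturated. Of 56605 probes, 49.91 to 54.73% were well above background per array. A probe had to be well above background on 3 or more of the 6 arrays, and the brightest one represented its gene. Groups were compared in limma 3.58.1 (R 4.3.3) with lmFit and eBayes and Benjamini-Hochberg adjustment over 19446 genes, a fit that was first tested on simulated data. For all 47 members the array's symbol was the current RefSeq one.

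The members and lists were chosen with earlier results of these data known. All members were to be named, with full statistics for those past the threshold; of each further list up to 4 genes per direction (cell type markers and acute phase genes 2) by moderated t. Same-numbered livers were checked for pairing: the correlations of their deviations were 0.02, 0.16 and 0.02, so the numbers were not used as pairs. The design text names 3 separate sEV mice and does not say this of the control livers, so p-values measure the spread between these samples; 3 arrays per group limit the precision. Alternatives were background correction, scaling, probe filters, probe averaging, variance trend, array weights, replicate and slide row blocks and leaving out each array. Probe positions are mm9 from the array files; exon or UTR annotation of that build was not used here.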

Additional observations from a re-analysis of the deposited data

How the results depend on the processing

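No member changed sign with a call, and C6, Mbl2, F11 and Cpb2 were called under 16 of 18 alternatives, all except the slide row block and row 1 alone. Under normexp, trend, weights, quantile normalization, the authors' deposited table, probe averaging and the stricter filter, the members called higher were 7 to 11 and those lower 3 or 4, against 8 and 4. Median scaling gave 4 higher and 4 lower, with 4 coagulation members called. Without a filter on dim probes, more genes were tested (37069) and 810 were called; members were 2 higher and 2 lower, 2 in complement and 2 in coagulation. With slide row as a block 715 genes were called and 0 members higher, 0 lower, 0 in complement and 0 in coagulation; within row 1 these were 594, 0, 0, 0 and 0. The replicate block, in which Thbd was added, gave 2210 genes and 5 members higher, with 4 of the 8 shared. Leaving out each array in turn gave 1348 to 2767 genes, 3 to 7 members higher, 2 to 3 lower, 3 to 5 in complement and 2 to 6 in coagulation. Both slide row fits and the leave-outs use fewer livers per comparison; other causes were not tested. Quantile normalization gave the coagulation members a median of -0.05 and the authors' table -0.04, against 0.20, so the sign of that median depends on the scaling. Low signals limit C3ar1, C5ar1, Thbd and F8.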
